A study of Mus musculus with 2 samples.

Results

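The cells described here are the regulatory and activated CD4 T cells of the inflamed abdominal aorta. They are the cells that the study's authors named Treg and activated CD4 in the library of mice given Lactobacillus casei cell wall extract (LCWE). The class was taken as annotated and held 294 of the 5091 cells of that library, and 294 of the 2198 cells there that were called T, NK (natural killer) or innate lymphoid. The series has 10477 cells in all. Within the class, the 88 cells with at least 1 unique molecular identifier (UMI, 1 captured transcript) of Foxp3 were set against the 206 cells with none.

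Regulatory T cells (Tregs) are CD4 T cells that restrain other immune cells. The transcription factor FOXP3 defines them in mice, and they carry the high-affinity interleukin-2 receptor and the checkpoint receptor CTLA-4. Tregs that live in tissues often bear the interleukin-33 receptor ST2, encoded by Il1rl1, and make amphiregulin, a growth factor tied to repair. Activated conventional CD4 T cells instead help other cells through CD40 ligand and through cytokines such as interferon gamma and interleukin-17, and they share many activation genes with Tregs.

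In mice LCWE brings on inflammation of large arteries, the coronary arteries and the aorta among them, and is used to study Kawasaki disease. Wild-type C57BL/6J mice received LCWE or phosphate-buffered saline (PBS) in the peritoneum, and 2 weeks later the abdominal aortas were pooled, 7 for LCWE and 9 for PBS. After enzymatic dissociation and removal of dead cells, each pool gave 1 droplet library (10x Genomics 3′, V3 chemistry). The labels used here give neither sex nor age, and the animals within a pool cannot be told apart. With 1 library per group there is no replicate, so no test was made, and the brackets hold 95% intervals that cover counting error only.

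The class had 1308646 UMIs, with a median of 3622 UMIs and 1497 genes per cell. Cells with a Foxp3 UMI had a median of 4339 UMIs and 1760.0 genes, against 3402.5 UMIs and 1424 genes in cells without one, so a gene was more easily seen in them. Shares of cells with a UMI are therefore also given after each cell was thinned to 2000 UMIs, which kept 86 of the 88 and 203 of the 206 cells. The mitochondrial share was 4.32% at the median in cells with a Foxp3 UMI and 4.12% in cells without one. No cell barcode of the class was shared with the PBS library. Free RNA was present: haemoglobin UMIs, which T cells do not make, were found in all 294 cells, at 3579 CPM (UMIs per 1000000 UMIs of the set) in cells with a Foxp3 UMI and 4978 CPM in cells without one. UMIs of 6 fibroblast markers were found in 265 of the 294 cells.

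The markers of the class matched its double name. Foxp3 lies on the X chromosome (chrX:7573644-7595245, GRCm38). It had 216 UMIs in the class, 70.6% of the 306 Foxp3 UMIs of the LCWE library. Ctla4, the checkpoint receptor, was at 640.4 CPM (598 to 685) in the class and 48.3 CPM (36.9 to 62.2) in naive CD4 T cells. Tnfrsf4, which encodes the costimulatory receptor OX40, was at 823 CPM (775 to 874) in the class, against 25.8 CPM (17.6 to 36.4) in naive CD4 T cells. Both genes were highest in this class among the 25 classes of the library.

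Icos and Pdcd1 marked other classes as well. Icos, a costimulatory receptor of activated T cells, was at 668 CPM (624 to 714) in the class, and at 1001 CPM (879 to 1136) in γδ T cells. Pdcd1, which encodes the checkpoint receptor PD-1, was at 215 CPM (191 to 242) in the class and 299 CPM (234 to 377) in γδ T cells. All 5 marker genes were higher in the class than in naive CD4 T cells.

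CD4 itself was seen in part of the class. Cd4 UMIs were found in 45 of the 88 cells with a Foxp3 UMI, 51.1%, and in 122 of the 206 cells without one, 59.2%. The share was 129 of 322 cells, 40.1%, in naive CD4 T cells, but 1 of 224 in B cells (median 2818 UMIs), which lack CD4. Cd8b1, a chain of the CD8 coreceptor, had UMIs in 13 of the 88 cells and in 13 of the 206, against 254 of 294 activated CD8 T cells. The T cell marker list of 5 measured genes was at 3711 CPM in cells with a Foxp3 UMI and 3457 CPM in cells without one.

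Where was Foxp3 seen? A Foxp3 UMI was found in 29.9% of the cells of the class (24.8 to 35.5), and after thinning in 57 of 289 cells, 19.7%. Of the 88 cells, 33 had 1 UMI, 25 had 2 UMIs, 11 had 3 UMIs, 7 had 4 UMIs, and the others up to 8. Most other classes had shares near 0, such as 1 of 224 B cells, 0.446% (0.0113 to 2.46), and 2 of 813 fibroblasts, 0.246% (0.0298 to 0.886), at a median of 11494 UMIs. In naive CD4 T cells 4 of 322 cells, 1.24% (0.339 to 3.15), had a Foxp3 UMI. The share in the class thus stood above that of cell types that should lack the gene. What put Foxp3 UMIs in those cell types was not tested.

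Proliferating T cells were the other class with Foxp3. There 11 of 65 cells, 16.9% (8.76 to 28.3), held 42 Foxp3 UMIs, at a median depth of 12440.0 UMIs, and 4.62% did after thinning. Those 11 cells had 951 CPM (823 to 1093) of Ctla4, 970 CPM (840 to 1114) of Tnfrsf4 and 801 CPM (684 to 933) of Ikzf2. Class cells with a Foxp3 UMI were near this for Ctla4, at 956 CPM (870 to 1048), and higher for Tnfrsf4, at 1434 CPM (1329 to 1546), and Ikzf2, at 1409 CPM (1305 to 1520.0), with intervals that overlap for neither Tnfrsf4 nor Ikzf2. In the PBS library, 0 of the 11 cells of the class had a Foxp3 UMI, which the exact interval allows for shares of up to 28.5%.

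**Figure D1:**
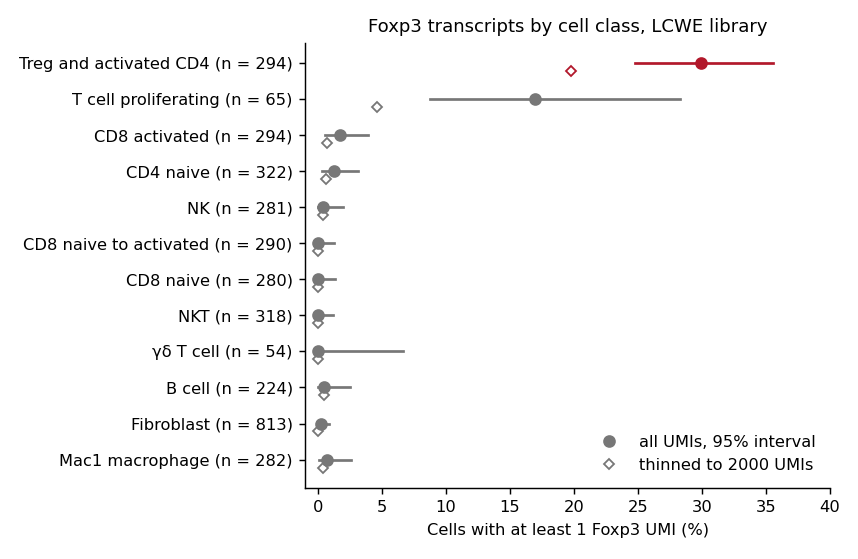
Share of cells with at least 1 Foxp3 UMI in 12 classes of the LCWE library. Circles with bars are the share over all UMIs with its exact 95% interval, and open diamonds the share after thinning each cell to 2000 UMIs; the regulatory and activated CD4 class (red) stands at 29.9%, proliferating T cells at 16.9%, and the other classes drawn at 1.7% or less.

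How did the cells with a Foxp3 UMI differ from the rest? Of 3632 genes with at least 50 UMIs in the class, 115 (3.17%) were at least 2-fold higher in cells with a Foxp3 UMI and 86 (2.37%) at least 2-fold lower, and the median log2 ratio was 0.02. The higher genes were led by Treg genes, receptors and integrins, and the lowest by the naming rule included 3 ligands of the tumour necrosis factor (TNF) family and genes of effector T cells. The cells were split by Foxp3 alone, so all other genes are measures that the split did not use, but Foxp3 is more often caught in deeper cells.

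**Figure D2:**
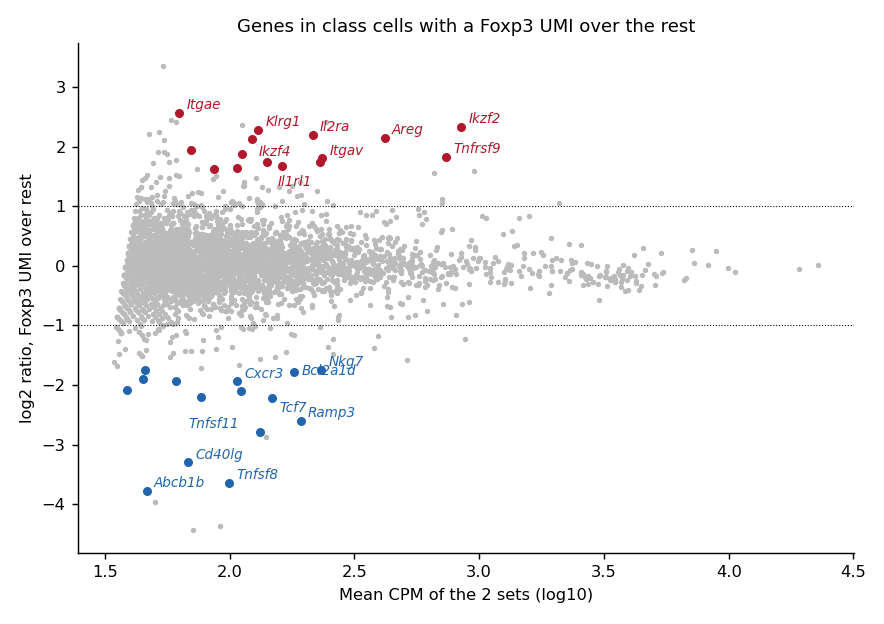
Log2 ratio of CPM in class cells with a Foxp3 UMI over class cells without one (y axis) against the mean CPM of both sets on a log10 scale (x axis), for the 3632 genes with at least 50 UMIs apart from Foxp3. Red and blue points are the 15 highest and 15 lowest genes under the naming rule, dotted lines mark 2-fold, and grey points beyond the coloured ones failed a condition of the rule, such as the limit on UMIs from 1 cell; Ikzf2 and Areg lie far above the line at high levels, and Abcb1b, Tnfsf8 and Cd40lg lie lowest among the named genes.

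The Treg identity genes stood higher as a group. Of the 13 that were measured, 10 were 2-fold or more above the rest in cells with a Foxp3 UMI and 0 below, and the median log2 ratio was 1.60. Among all 6268 genes with at least 20 UMIs, the level at which a list member counts as measured, 5.15% were higher by that much and 4.69% lower. Ikzf2, which encodes Helios, a transcription factor of Tregs (chr1:69531214-69687245), was at 1409 CPM (1305 to 1520.0) with Foxp3 and 280 CPM (245 to 318) without, 5.03-fold (4.33 to 5.87). It was seen in 84 of 88 cells and in 68 of 206 cells. After thinning, the shares were 80.2% (70.2 to 88) and 22.7% (17.1 to 29). In B cells 4 of 224 had an Ikzf2 UMI, but the class as a whole, at 691 CPM (646 to 737), was level with NKT cells, at 704 CPM (661 to 749).

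The interleukin-2 receptor and the related Ikaros factor followed. Il2ra, the α chain CD25 that gives the receptor its high affinity, was at 353 CPM (301 to 410.4) in cells with a Foxp3 UMI and 76.9 CPM (59.2 to 98.2) in cells without one, 4.59-fold (3.42 to 6.22). Il15ra, the α chain of the interleukin-15 receptor, was the other of 7 measured receptors of this cytokine family past 2-fold, with 19 UMIs in 12 cells and 9 UMIs in 7 cells. Ikzf4, which encodes the transcription factor Eos, was 4.37-fold higher (2.97 to 6.55), with UMIs in 41 of 88 and 21 of 206 cells. Lrrc32, which encodes GARP, the protein that holds latent TGF-β on the Treg surface, had 34 UMIs in 21 cells with a Foxp3 UMI and 5 UMIs in 4 cells without, 11.9-fold (4.63 to 38.9).

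Receptors of the TNF receptor family and checkpoint receptors were higher too. Tnfrsf9, which encodes 4-1BB, was at 1151 CPM (1057 to 1251) and 322 CPM (285 to 363), 3.57-fold (3.08 to 4.15), in 71 of 88 cells with a Foxp3 UMI and 54 of 206 without. Tnfrsf4 (OX40) was 3.03-fold higher (2.67 to 3.44), Tnfrsf18 (GITR) 2.17-fold (1.89 to 2.5) and Ctla4 2.08-fold (1.81 to 2.39). Of 15 measured costimulation and checkpoint receptors, 6 passed 2-fold upwards and 1, Cd40lg, downwards. Tnfrsf9, Tnfrsf4, Tnfrsf18 and Ctla4 are also in the Treg identity list. Icos and Pdcd1, the other markers of the class, did not separate the sets.

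Icos was at 601 CPM (533 to 674) in cells with a Foxp3 UMI and 706 CPM (650.4 to 766) in cells without. Pdcd1 was at 246 CPM (203 to 294) and 198 CPM (169 to 231), with intervals that overlap. The 3 identity genes under 2-fold were Capg, at 1.94-fold (1.67 to 2.27), Socs2, at 1.53-fold (0.886 to 2.62), and Nrp1, at 1.01-fold (0.767 to 1.32). Nrp1 encodes neuropilin-1, a surface receptor that marks thymus-derived Tregs in mice, and here it was seen in 47 of 88 and 88 of 206 cells.

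Counted per cell, the identity genes gave a graded picture rather than a clean split. Thinned to 2000 UMIs, cells with a Foxp3 UMI held UMIs of a median of 6.5 of the 13 genes, cells without one a median of 2, and naive CD4 T cells a median of 0. At least 5 of the 13 were held by 70 of 86 cells with a Foxp3 UMI (81.4%), 37 of 203 cells without one (18.2%) and 5 of 318 naive CD4 T cells (1.57%). In the other direction, 1 of 86, 17 of 203 (8.37%) and 197 of 318 cells (61.9%) held none. Of the cells without a Foxp3 UMI, 18 of 206 held both Ikzf2 and Il2ra UMIs, against 53 of 88 with one. If both genes were detected independently, 12.2 and 51.5 cells would be expected. These and all later expected counts use unthinned cells and leave out depth, although deeper cells more easily show both genes of a pair. The part of depth in the joint counts was not tested. A cell without a Foxp3 UMI may still express the gene, at a level missed at this depth.

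**Figure D3:**
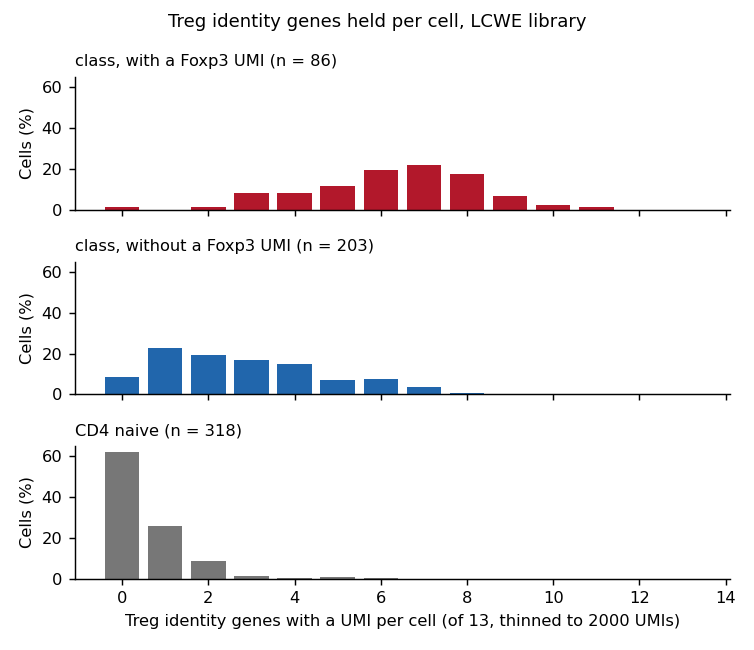
Share of cells (y axis, percent) by the number of 13 Treg identity genes with a UMI after thinning to 2000 UMIs (x axis), for class cells with a Foxp3 UMI (n = 86), class cells without one (n = 203) and naive CD4 T cells (n = 318). The medians are 6.5, 2 and 0, and the first and second distributions overlap.

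A second group of higher genes belongs to tissue Tregs. Of its 11 measured genes, 5 were 2-fold or more higher and 0 lower, and the median log2 ratio was 0.60. This list is not separate from the others: it shares Itgae with the Treg identity list and Areg with the list of Treg effector molecules. Areg, which encodes amphiregulin (chr5:91139599-91148432), was at 683 CPM (610.3 to 761) in cells with a Foxp3 UMI and 154 CPM (128 to 183) in cells without one, 4.44-fold (3.61 to 5.49). It was seen in 41 of 88 and 34 of 206 cells, and in 2 of 224 B cells. Areg was not highest in the class as a whole, which had 346 CPM (315 to 380), against 453 CPM (372 to 546) in γδ T cells, where 7 of 54 cells held 109 UMIs, 64 of them in 1 cell. A single cell held 88 of the 325 Areg UMIs of the Foxp3 set. The log2 ratio was 2.15 with all cells, 1.70 when the cell with most Areg UMIs was left out and 1.68 without cells that had a Cd8a or Cd8b1 UMI.

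The interleukin-33 receptor and KLRG1 showed the same direction with no cell holding many UMIs. Il1rl1 (chr1:40429570-40465415) was at 246 CPM (203 to 294) and 76.9 CPM (59.2 to 98.2), 3.2-fold (2.34 to 4.41), with UMIs in 41 of 88 and 22 of 206 cells. Klrg1, an inhibitory receptor of differentiated lymphocytes, was at 216 CPM (177 to 262) with Foxp3 and 44.4 CPM (31.3 to 61.3) without, 4.87-fold (3.31 to 7.29), in 40 of 88 and 17 of 206 cells. The class held 57.5% of the 315 Il1rl1 UMIs of the library, 39.3% of its 1153 Areg UMIs and 37.1% of its 377 Klrg1 UMIs. Il1rl1 and Klrg1 were found together in 26 of the 88 cells with a Foxp3 UMI and in 6 of the 206 without, and Areg and Il1rl1 together in 21 and 10 cells. Independent detection would give 18.6 and 1.82 cells for the first pair, and 19.1 and 3.63 cells for the second.

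Gata3, a transcription factor that Th2 cells and many tissue Tregs share, differed less in level than these genes. It was at 210 CPM (171 to 255) in cells with a Foxp3 UMI and 155 CPM (129 to 184) in cells without one, 1.36-fold (1.03 to 1.77), and was seen in 51 of 88 and 70 of 206 cells. Rora, at 685 and 635 CPM, Maf, at 361 and 288 CPM, and Il1r2, at 160 and 121 CPM, were also within 2-fold. Rora encodes a nuclear receptor, Maf a transcription factor and Il1r2 a decoy receptor for interleukin-1. Il1r2 was nevertheless found in 27 of 88 cells with a Foxp3 UMI and 19 of 206 without.

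Integrins of tissue retention and of TGF-β activation were among the highest ratios. Itgae, which encodes the CD103 chain that binds E-cadherin, had 51 UMIs in 27 of 88 cells with a Foxp3 UMI and 15 UMIs in 11 of 206 without, 5.94-fold (3.29 to 11.4). Over the class it was at 50.4 CPM (39 to 64.2), below the 162 CPM (115 to 221) of γδ T cells. Itgav, the αV chain, was 3.5-fold higher (2.69 to 4.58). Itgb8, the β chain that pairs with it to release active TGF-β, had 28 UMIs in 19 cells and 8 UMIs in 6 cells, 6.12-fold (2.72 to 15.5). Itgb1, the β1 chain, ran the other way, at 137 CPM against 381 CPM, 0.358-fold. Of 13 measured adhesion genes, 3 were at least 2-fold higher and 1 lower.

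The promoters of the highest and lowest genes were searched for 4 short motifs, on both strands, in RefSeq windows of 300 bases (GRCm38.p6). The windows run from 250 bases before a start to 50 after, and 10 of the 15 highest and 13 of the 15 lowest genes had one. The motifs were TGTTTAC, the core bound by forkhead factors such as FOXP3, TGACGTCA, the cyclic AMP response element (CRE), TGANTCA, bound by AP-1, and TTCNNNGAA, bound by STAT factors. The forkhead letters were in the windows of 1 of the highest genes, Il1rl1, and 1 of the lowest, Tcf7, and in 3.65% of all 32851 windows. CRE was in 1 highest gene, Areg, and in none of the lowest (1.79% of all windows).

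AP-1 was in 1 highest gene, Tnfrsf9, and in 2 of the lowest, Mirt1 and Bcl2a1d (7.81% of all windows). STAT was in 1 highest gene, Tnfrsf9, and 1 lowest, Nkg7 (8.30% of all windows). A match describes these letters and is no evidence of binding. The windows of Areg and Il1rl1 are printed because these tissue Treg genes hold a CRE and a forkhead match, in capitals. That of Areg (chr5:91139349-91139648, plus strand) has its CRE, which reads the same on both strands, 61 bases before the start. That of Il1rl1 (chr1:40439379-40439678, plus strand) surrounds a start inside the gene and has the forkhead letters on the minus strand, so that the plus strand reads GTAAACA, 117 bases before the start.
Areg: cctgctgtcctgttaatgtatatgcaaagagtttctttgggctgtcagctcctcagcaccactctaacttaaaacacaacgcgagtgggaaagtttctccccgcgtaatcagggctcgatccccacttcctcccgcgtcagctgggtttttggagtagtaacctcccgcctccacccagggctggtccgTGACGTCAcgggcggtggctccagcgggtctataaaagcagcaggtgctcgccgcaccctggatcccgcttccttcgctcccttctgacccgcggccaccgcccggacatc
Il1rl1: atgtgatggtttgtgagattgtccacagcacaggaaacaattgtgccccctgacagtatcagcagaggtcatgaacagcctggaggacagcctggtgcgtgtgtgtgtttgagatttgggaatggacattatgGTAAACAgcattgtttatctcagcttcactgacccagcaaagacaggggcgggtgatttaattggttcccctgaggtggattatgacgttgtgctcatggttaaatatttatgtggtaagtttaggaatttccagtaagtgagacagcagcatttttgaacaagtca

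The other genes with the highest ratios have less settled roles in Tregs. Dgat2, an enzyme of the last step of triglyceride synthesis, was 3.86-fold higher (2.34 to 6.54), and Osbpl3, an oxysterol-binding protein, 3.67-fold (2.49 to 5.49). The tetraspanins Cd81 and Tspan32 were 3.34-fold (2.56 to 4.37) and 3.1-fold (2.01 to 4.83) higher. Bmyc, a Myc relative, was 3.37-fold higher (2.4 to 4.77) and Arl5a, a small GTPase of the Golgi, 3.13-fold (2.13 to 4.66). Each of these 6 genes was seen in a larger share of the cells with a Foxp3 UMI than of the rest, such as 53 of 88 against 22 of 206 for Osbpl3.

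Secreted and surface effector molecules of Tregs gave few differences. Among the 8 that were measured, Areg and Fgl2 passed 2-fold and 0 were lower by that much. Fgl2, a secreted fibrinogen-like protein with suppressive activity, was 2.04-fold higher (1.47 to 2.83). Tgfb1 was at 239 CPM (197 to 288) in cells with a Foxp3 UMI and 312 CPM (275 to 353) in cells without. Il10, the anti-inflammatory cytokine, was rare, with 10 UMIs in 7 of 88 cells and 8 UMIs in 5 of 206 cells. Gzmb, a granzyme, was at 155 and 160 CPM, and 1 cell held 30 of its 74 UMIs in the Foxp3 set.

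Of the genes lowest in the cells with a Foxp3 UMI by the naming rule, 3 encode ligands of the TNF family. Others of that family did not follow: Ltb, which encodes lymphotoxin β, was at 1021 CPM in cells with a Foxp3 UMI and 807 CPM in cells without, Tnf at 35.7 and 45.6 CPM, and Tnfsf10 (TRAIL) had 14 UMIs in each set. Tnfsf8, which encodes CD30 ligand (chr4:63831308-63861347), had 7 UMIs in 4 of 88 cells with a Foxp3 UMI and 153 UMIs in 54 of 206 cells without, a level 12.5-fold (5.92 to 31.6) lower with Foxp3. Cd40lg, the CD40 ligand by which helper T cells activate B cells and phagocytes (chrX:57212143-57224042), had 6 UMIs in 4 cells and 103 UMIs in 63 cells, 9.82-fold (4.36 to 27.4) lower. Tnfsf11, which encodes RANKL (chr14:78277445-78308043), had 16 UMIs in 7 cells and 193 UMIs in 70 cells, 6.9-fold (4.14 to 12.3) lower. After thinning, each of the 3 genes was seen in at most 2.33% of the cells with a Foxp3 UMI, and in 16.7% (Tnfsf8), 19.7% (Cd40lg) and 22.7% (Tnfsf11) of those without.

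The 3 ligands differed in naive CD4 T cells. Cd40lg UMIs were found in 52 of 322 naive CD4 T cells (16.1%) and Tnfsf8 UMIs in 39 of them (12.1%), but Tnfsf11 UMIs in 8 (2.48%). The class held 52.4% of the 208 Cd40lg UMIs of the library, 34.8% of the 600 Tnfsf11 UMIs and 24.9% of the 642 Tnfsf8 UMIs. Of the 63 cells with a Cd40lg UMI and no Foxp3 UMI, 21 also had Tnfsf11, 18 had Tnfsf8 and 17 had Ikzf2. Independent detection would give 21.4, 16.5 and 20.8 cells, so these overlaps were near that level. Other pairs were not: of the same 63 cells, 3 had Il2ra and 4 had Areg, against 11.3 and 10.4 under independent detection. Among all 206 cells without a Foxp3 UMI, 35 held both Tnfsf11 and Tnfsf8, against 18.3 under independent detection.

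**Figure D4:**
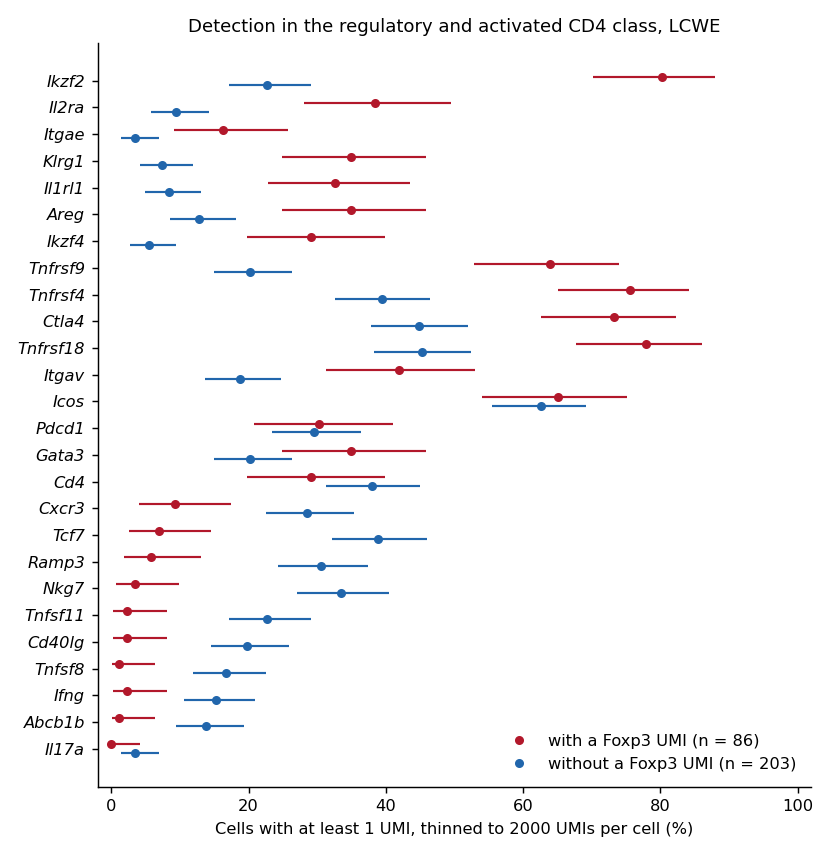
Share of cells with at least 1 UMI of each gene (x axis, percent) after thinning to 2000 UMIs, for class cells with a Foxp3 UMI (red, n = 86) above those without (blue, n = 203), with exact 95% intervals. Ikzf2 is at 80.2% and 22.7%, Icos and Pdcd1 nearly level, and Tnfsf8, Cd40lg and Tnfsf11 at 2.33% or less in red against 16.7% to 22.7% in blue.

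Type 1 genes were lower in the cells with a Foxp3 UMI. Of 9 measured Th1 genes, 6 were 2-fold or more lower and 0 higher, with a median log2 ratio of -1.23. Cxcr3, the receptor for chemokines induced by interferon gamma, had 21 UMIs in 14 of 88 cells with Foxp3 and 141 UMIs in 93 of 206 without, 3.84-fold (2.42 to 6.4) lower. Nkg7, a protein of cytotoxic granules, had 51 UMIs in 14 cells and 299 UMIs in 87 cells, 3.35-fold (2.49 to 4.61) lower. Ccl5, a chemokine of effector T cells, was at 525 and 1232 CPM, and Cxcr6, a chemokine receptor of tissue T cells, at 77.7 and 225 CPM.

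Interferon gamma itself was seen in a minority of cells. Ifng (chr10:118441046-118445892) had 16 UMIs in 5 of 88 cells with a Foxp3 UMI and 205 UMIs in 42 of 206 cells without, 72 of them in 1 cell. The level was 0.136-fold, and without the top cell of each set 7 and 133 UMIs remained. Ifng and Cd40lg were found together in 0 of the 88 cells and in 21 of the 206, where independent detection would give 0.227 and 12.8 cells. The class held 15.4% of the 1438 Ifng UMIs of the library, and activated CD8 T cells 29.9%. Tbx21, which encodes T-bet, the transcription factor of Th1 cells, was seen in 5 of 88 and 20 of 206 cells. Of the 42 cells with Ifng and no Foxp3 UMI, 11 had Tbx21, against 4.08 under independent detection with depth left out.

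Interleukin-17 rested on few cells. Il17a (chr1:20730905-20734496) had 4 UMIs in 1 cell with a Foxp3 UMI and 145 UMIs in 8 cells without, of which 1 cell held 115. Il22 had 0 UMIs and 38 UMIs in 7 cells, 71.7% of the 53 Il22 UMIs of the library, and Il17f had 0 UMIs and 16 UMIs in 9 cells. No cell of the class held both Il17a and Ifng UMIs. Independent detection would give only 0.0568 cells with a Foxp3 UMI and 1.63 without, so their absence cannot show that the genes exclude each other.

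Of the 8 cells with Il17a and no Foxp3 UMI, 6 had Tmem176b, a membrane protein tied to the Th17 programme in mice. Independent detection would give 1.75 such cells. In γδ T cells, the class with most Il17a, 27 of 54 cells held 204 of the library's 431 Il17a UMIs. Of 7 measured Th17 genes, 4 were at least 2-fold lower with Foxp3 and 1 was higher. That gene was Ccr6, a chemokine receptor of Th17 cells and of some Tregs, with 42 UMIs in 27 of 88 cells and 17 UMIs in 13 of 206 cells, 4.32-fold (2.41 to 8.09).

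The cytotoxic list also ran lower with Foxp3, with 5 of 8 measured genes 2-fold or more lower and 0 higher. Nkg7 and Ccl5, given above, are among those lower genes and belong to the Th1 list as well. Gzma, a granzyme, had 3 UMIs in 2 of 88 cells and 113 UMIs in 17 of 206, 44 of them in 1 cell. Gzmk had 1 UMI and 30 UMIs in 15 cells. Of 8 measured cytokine genes, 6 were at least 2-fold lower and 0 higher, and the median log2 ratio was -2.87. That list shares Ifng with the Th1 list, Il17a and Il22 with the Th17 list, and holds Tnfsf8, Tnfsf11 and Cd40lg. The exceptions were Tnf and Ltb, given above. Il2, the growth factor on which Tregs depend, had 1 UMI in 1 of 88 cells and 15 UMIs in 8 of 206 cells. Il21 had 0 UMIs and 6 UMIs in 4 cells, and Il4 1 UMI and 0 UMIs.

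The remaining genes of the lowest ratios were Abcb1b, an efflux pump, with 3 UMIs in 3 of 88 cells and 72 UMIs in 45 of 206 cells, and Ramp3, a partner of peptide hormone receptors, with 26 UMIs in 15 cells and 275 UMIs in 87 cells. Tcf7, which encodes TCF-1, a factor of naive and memory T cells, had 25 UMIs in 14 cells and 203 UMIs in 105 cells, 4.64-fold (3.06 to 7.35) lower. Serpinb9, an inhibitor of granzyme B, was 4.62-fold lower (2.59 to 8.96), Tbc1d4, a Rab regulator, 4.29-fold (2.68 to 7.22) and Pde3b, a cyclic nucleotide phosphodiesterase, 4.25-fold (1.92 to 11.1). Tmem176a was 3.81-fold lower (2.07 to 7.69) and the noncoding RNA Mirt1 3.75-fold (1.85 to 8.6). Bcl2a1d, of the A1 family of survival proteins, was 3.43-fold lower (2.44 to 4.95), but its near-identical copies make its count uncertain.

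Chemokine receptors did not follow 1 direction. Of 10 measured chemokine receptors, Ccr6 and Ccr8 were at least 2-fold higher and Cxcr3 and Cxcr6 lower. Ccr8, a receptor often found on tissue Tregs, had 19 UMIs in 14 of 88 cells with a Foxp3 UMI and 10 UMIs in 7 of 206 cells without, 3.32-fold (1.47 to 8). Ccr2, an inflammatory chemokine receptor, was at 166 and 130 CPM, with overlapping intervals, and Cxcr4 at 342 and 286 CPM.

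Several programmes were close to level between the sets. Of 12 measured genes of the T cell receptor response, 0 were 2-fold higher and 0 lower, with a median log2 ratio of -0.16. Of 10 genes of NF-κB and TNF receptor signalling none passed 2-fold, with a median of 0.35. The cycling list had a median of -0.46, with 0 of 7 measured members higher and 1 lower, Tyms, an enzyme of DNA synthesis, with 4 and 16 UMIs. The type I interferon list, with 0 of 9 higher and 2 lower, had a median of -0.13. The glycolysis and dissociation lists each had a median of 0.00, although Hk2, a hexokinase, had 7 UMIs in 6 of 88 cells and 40 UMIs in 24 of 206, 3.27-fold (1.45 to 8.65) lower, and the mitochondrial list one of -0.03. The TGF-β response list had a median of 0.08, with Itgae and Tgfbr1, a receptor of TGF-β, at least 2-fold higher.

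Helper genes of follicular T cells (Tfh) leaned towards the cells with a Foxp3 UMI. Of 7 measured genes, 3 passed 2-fold upwards and 0 downwards: Izumo1r, which encodes folate receptor 4, and Tox and Tox2, DNA-binding proteins of stimulated T cells. Izumo1r, also in the Treg identity list, was 2.55-fold higher (1.91 to 3.41), Tox 2.13-fold (1.53 to 2.99) and Tox2 2.87-fold (1.42 to 6.04). Bcl6, the transcription factor of Tfh cells, was seen in 14 of 88 cells with a Foxp3 UMI and 20 of 206 without, but also in 21 of 224 B cells and 34 of 322 naive CD4 T cells.

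Markers of other cell types were checked beside these differences. The 4 B cell markers had 68 UMIs in 6 of 88 cells with a Foxp3 UMI, up to 34 in 1 cell, and 24 UMIs in 6 of 206 cells without. Phagocyte markers were at 590.1 and 485 CPM, with C1qb and C1qc at 0 in the Foxp3 set. A single cell held 68 of the 281 phagocyte marker UMIs of the Foxp3 set, and another 78 of the 404 of the rest. NK and innate lymphoid markers were at 323 and 199 CPM, with Klra8 at 0 in the Foxp3 set. Of these UMIs, 1 cell held 56 of 154 in the Foxp3 set and 1 cell 43 of 166 in the rest. Neutrophil markers were at 130.2 and 111 CPM, fibroblast markers at 523 and 674 CPM, smooth muscle markers at 67.2 and 97.3 CPM, and endothelial markers at 69.3 and 82.9 CPM. A doublet score over 0.1 was given to 4 cells of each set. Without the cells with a B cell marker UMI, and separately without those with the high doublet score, the counts of genes past 2-fold stayed within 1.5 times of those given.

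The split also had a place on the authors' map of the cells. The median position was 7.96 and -4.50 in cells with a Foxp3 UMI and 7.45 and -5.41 in cells without, on axes with no unit. The cells with Foxp3 lay at 1 end of the class. The map was made from these same genes, so this position describes the cells and supports nothing further.

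**Figure D5:**
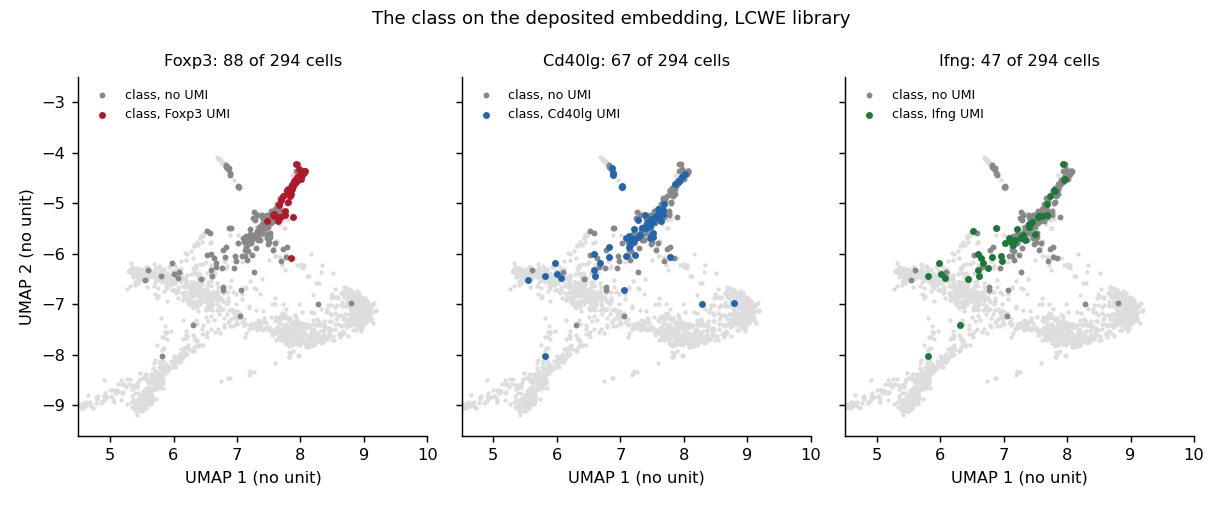
The class on the authors' deposited map (UMAP axes, no unit), with the other T, NK and innate lymphoid cells of the LCWE library in light grey, and class cells with a UMI of Foxp3 (88), Cd40lg (67) or Ifng (47) in colour. Foxp3 cells gather at the upper right end and Cd40lg and Ifng cells lie mostly below it; 5 class cells fall outside the drawn area.

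The class was then set against the 322 naive CD4 T cells of the same library, its resting counterpart by the labels. The authors clustered the cells on these genes, so the differences describe the class and test nothing. Of 5164 genes with at least 50 UMIs in both classes together, 856 (16.6%) were at least 2-fold higher in the class and 103 (1.99%) lower. The median log2 ratio over all genes was 0.38. With a trimmed-mean scaling that removes a shift of 0.39, 448 genes were higher and 290 lower, so the ratios below are to be read against that shift.

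Tissue Treg genes and activation receptors were among the highest ratios, beside the secreted products Tff1 and Penk. Penk, the precursor of enkephalin peptides, had 167 and 1 UMIs, 158-fold (28.1 to 6296), and Tff1, a trefoil peptide, 201 and 0 UMIs. Areg had 453 UMIs in the class and 3 in naive CD4 T cells, 143-fold (48.7 to 697), and Il1rl1 181 and 2 UMIs, 85.9-fold (23.4 to 714). Klrg1 had 140 UMIs and 0 UMIs, 44.3-fold higher against a floor of 3 UMIs over the naive cells, with a lower interval bound of 35.5-fold. Tnfrsf9 had 816 and 13 UMIs, 59.6-fold (34.6 to 112), Il1r2 177 and 3 UMIs, 56-fold (18.8 to 274), and Tnfrsf4 1077 and 32 UMIs, 31.9-fold (22.5 to 46.9). Ccr2 had 187 and 6 UMIs, 29.6-fold (13.3 to 81.6), and Ttc39c, a protein of unclear role in T cells, 106 and 2 UMIs.

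The genes lowest in the class were those of naive T cells. Igfbp4, an insulin-like growth factor binding protein, was at 42 CPM in the class and 778 CPM in naive CD4 T cells, 18.5-fold (14.1 to 24.8) lower. Lef1, a partner of TCF-1, was 6.08-fold lower (4.67 to 8.03) and Satb1, a chromatin organizer of T cells, 5.71-fold (4.95 to 6.6). Dapl1 was 12.2-fold lower (7.17 to 22.2), Pdlim4 12.6-fold (5.13 to 40.4) and Sox4 6.22-fold (3.85 to 10.5). St8sia6, Ndrg3, Tdrp and Dirc2 were 7.68-fold, 7.67-fold, 6.43-fold and 5.48-fold lower. Of 10 measured naive and lymphoid homing genes, 7 were at least 2-fold lower and 0 higher, with a median log2 ratio of -1.49. Among all 7707 genes with at least 20 UMIs, 18.7% were higher by that much and 2.84% lower.

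Lists of regulatory and of effector genes were both higher in the class. All 14 measured Treg identity genes passed 2-fold, at a median log2 ratio of 3.64, and so were 8 of 9 Th1 genes, with a median of 2.97, and all 8 measured cytotoxic genes, with a median of 2.87. Of 11 measured chemokine receptors, 9 were higher and 0 lower. In the cells without a Foxp3 UMI alone, the identity list still had a median of 3.12.

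A pair of secreted products came from few cells of the class. Tff1, which encodes a trefoil peptide of mucosal surfaces (chr17:31161395-31165277), had 201 UMIs in 32 cells of the class and 0 UMIs in naive CD4 T cells. The ratio was 63.6-fold against the floor, and the lower bound of its interval 51.2-fold. Cells with a Foxp3 UMI held 116 of them in 23 of 88 cells, and cells without one 85 in 9 of 206, a level 2.39-fold (1.79 to 3.19) higher with Foxp3. The top cells held 24 and 14 of the 116 UMIs, and 29 and 28 of the 85. The class had 50.9% of the 395 Tff1 UMIs of the library, and the 11 proliferating T cells with a Foxp3 UMI had 70 UMIs in 5 cells. B cells had 1 Tff1 UMI. The Penk UMIs lay in 23 cells of the class, with 59 UMIs in 10 cells with a Foxp3 UMI and 108 UMIs in 13 cells without, 0.955-fold (0.682 to 1.32). The top cells held 14, 12 and 12 of the 59 UMIs, and 30, 29 and 19 of the 108. The folds of Tff1 and Penk thus rest on few cells, which their intervals do not cover. The same 11 proliferating cells had 73 Penk UMIs in 2 cells.

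The PBS library held 11 cells of the same name, with 68071 UMIs and a median of 5712 UMIs per cell. LCWE and PBS cells of the class could be compared for presence only. Il1rl1 was seen in 63 of 294 LCWE cells and 4 of 11 PBS cells, Areg in 75 and 3, Ctla4 in 188 and 3, Tnfrsf4 in 185 and 1, Cd40lg in 67 and 4, and Ifng in 47 and 3 cells. Foxp3, Il17a and Tff1 had 88, 9 and 32 LCWE cells and 0 PBS cells each, which the exact interval allows for shares of up to 28.5% of the PBS cells.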

How the data were processed

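Gene counts were UMI counts per gene and cell, deposited by the authors without normalization for 1 pooled library per group. They were made with Cell Ranger 3.0.2 against mm10, per the submitters' processing notes. A cell table from the authors, also deposited, gives class names, the percent of mitochondrial UMIs, a doublet score whose caller it does not name, and the score positions of the map. All totals, gene numbers and mitochondrial shares were recomputed in 10477 cells and matched within 0.01 points. No listed cell carries the authors' call of a dead cell or a doublet, and no doublets were called here. Both libraries list 27998 genes. Constant-region genes of T cell receptors and immunoglobulins, Trbc1 and Trbc2 among them, were not used here, so γδ cells could not be checked by their receptor.

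UMIs were summed over a set of cells and divided by the set's total (CPM) with exact Poisson intervals. Ratios carry exact conditional binomial intervals and shares exact Clopper-Pearson intervals, all at 95%. A sum under 3 UMIs was raised to a floor of 3, per set, for log2 ratios. The intervals treat UMIs as independent and leave out differences between cells and animals. The 15 highest and 15 lowest genes by Foxp3, and the 10 of each against naive CD4 T cells, needed at least 50 UMIs in the higher set, an interval beyond 1.5-fold, UMIs in at least 10 cells and no cell with over 20% of the UMIs. Foxp3, mitochondrial, ribosomal, haemoglobin, receptor segment, Y-linked and Xist genes were excluded, as were other cell types' markers. Up to 4 members were named from each of 34 lists, with the most UMIs, those past 2-fold first, and lineage factors and cytokines were named as counts of cells. Lrrc32, Capg, Socs2, Nrp1, Rora, Maf, Il1r2 by Foxp3, Itgb8, Ccr8, Tff1 and Penk by Foxp3 and other genes outside the rule were chosen after their values were seen. The members of the class, the lists and the named genes were chosen with earlier results of these data known.

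Positions come from GENCODE vM21 (GRCm38), the build of mm10. The ratio step was tested on simulated counts. Python 3.11.15 with numpy 2.4.6, scipy 1.17.1, pandas 2.3.3 and matplotlib 3.10.9 was used. Alternatives were thinning to 2000 UMIs, a threshold of 2 Foxp3 UMIs, cells left out by CD8 UMIs, mitochondrial share over 10% or under 3000 UMIs, the mean of single-cell CPM, trimmed-mean scaling, minimums of 20 and 100 UMIs, a floor of 1, and, added after the data were seen, cells with a doublet score over 0.1 or a B cell marker UMI left out, and each gene without its top cell.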

Additional observations from a re-analysis of the deposited data

How the results depend on the processing

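No paired analysis was possible because each group is 1 library, and for the same reason no replicate could be left out. The share of the class with a Foxp3 UMI was 29.9% and depended on depth and threshold: 19.7% after thinning to 2000 UMIs, 18.7% with at least 2 Foxp3 UMIs and 35.6% without cells under 3000 UMIs. Of genes past 2-fold by Foxp3, 115 were higher and 86 lower. Under 3 alternatives the lower genes outnumbered the higher: thinning left 55 higher and 74 lower among the 1717 genes that still had 50 UMIs, at least 2 Foxp3 UMIs gave 93 and 99, and leaving out the top cell of each gene, chosen after seeing the data, 78 and 91. For every thinned value by Foxp3 in this paragraph, cells were split anew by the Foxp3 UMIs left, which 57 of 289 cells had. Depth and the make-up of the sets thus changed together. A minimum of 20 UMIs gave 323 higher and 294 lower and a minimum of 100 UMIs 55 higher and 42 lower. No gene named by Foxp3 changed direction. Of the lists by Foxp3, the medians of T cell receptor response, type I interferon, mitochondrial, naive and homing, glycolysis, dissociation, chemokine receptor and haemoglobin genes changed sign under at least 1 alternative, and those of the other lists did not. For the lists by Foxp3, the median log2 ratio of T cell cytokines was -1.78 after thinning, and with the mean of single-cell CPM those of Treg identity and the tissue Treg list were 1.80 and 1.38; the cause was not tested. Of 390 values of named genes by Foxp3 under an alternative, 364 stayed within the counting interval and 26 did not. The 364 include 30 values each for the minimum of 20 UMIs, the minimum of 100 UMIs and the floor of 1. Those settings could not move the ratio of a named gene, so their values say nothing about stability. Another 30 come from trimmed-mean scaling, which shifted every log2 ratio by the same 0.033. That is too little to leave the counting interval of any named gene, so these values say nothing about stability either.

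Against naive CD4 T cells, 856 genes were higher and 103 lower. Thinning gave 484 higher, trimmed-mean scaling 448 higher and 290 lower, a minimum of 20 UMIs 1442 and 219, a minimum of 100 UMIs 502 and 65, and class cells with a Foxp3 UMI alone 156 lower. The naive and homing list had a median of -1.88 with trimmed-mean scaling and -2.07 with the Foxp3 cells alone, where Treg identity had 4.31. The type I interferon median was 0.34, and -0.05 with trimmed-mean scaling. Depth limits the rare transcripts: Il4, Il21, Il2 and Il10 had too few UMIs for a ratio to be read.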

Other observations

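Neb, which encodes nebulin, a giant protein of the muscle sarcomere, had 47 UMIs in 30 of the 88 class cells with a Foxp3 UMI and 8 UMIs in 8 of the 206 cells without, 10.3-fold (4.81 to 25.2) higher with Foxp3. The class held 62.5% of the 88 Neb UMIs of the LCWE library, and naive CD4 T cells held 1 UMI. Smooth muscle markers were at 67.2 CPM in the cells with a Foxp3 UMI, against 97.3 CPM in the cells without. No marker list of sarcomeric muscle was used, so a source of Neb in such muscle was not tested. Neb was chosen after its values were seen.

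Cxcl2, a chemokine that draws neutrophils and is made in bulk by myeloid cells, had 195 UMIs in 28 of 88 cells with a Foxp3 UMI, 55 of them in 1 cell, and 64 UMIs in 42 of 206 cells without. Phagocyte markers were at 590.1 and 485 CPM in these sets, and their part in the Cxcl2 difference was not tested. In each set 1 cell held many of the phagocyte marker UMIs, 68 of 281 with a Foxp3 UMI and 78 of 404 without. Gzmc, a granzyme, had 1 UMI in cells with a Foxp3 UMI and 82 UMIs in 3 cells without, 73 of them in 1 cell.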
